A study of Mus musculus with 8 samples.

Results

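The ATP-binding cassette (ABC) transporters of mouse haematopoietic progenitors were examined as all genes whose symbol begins with Abc, a subfamily letter from a to g and a number, leaving out Abca1 and Abcg1. The rule found 48 of the 23284 genes in the table, and 31 of them had enough counts to be tested, among 13300 tested genes in all. RNA came from bone marrow of Hdc-GFP mice on a C57BL/6 background, in which green fluorescent protein reports on Hdc, the gene for the histamine-making enzyme histidine decarboxylase. LSK cells, which lack lineage markers and carry Sca-1 and c-Kit, were sorted into Hdc-GFPhi (n = 4 libraries) and Hdc-GFPlo (n = 4 libraries), with RNA of 2000 cells in each library. Both fractions carry the reporter and were separated by its brightness. The sources used here state neither age nor sex of the mice, nor whether a library held cells of 1 animal or of several.

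ABC proteins use ATP to move lipids, peptides, metals, conjugates and drugs across membranes. In bone marrow the family is best known for Abcg2, which pumps Hoechst dye out of stem cells and so makes the dim "side population", and for P-glycoprotein, a broad drug pump that mice encode in the neighbouring genes Abcb1a and Abcb1b. Other members sit in mitochondria, peroxisomes and lysosomes, and the E and F subfamilies have no membrane part and act on ribosomes.

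Libraries held 16726179 to 23051277 counts, with 14856 to 15446 genes detected in each. The sort genes Kit (1460 ± 110 against 1195 ± 315 counts-per-million, CPM, mean ± SD in Hdc-GFPhi and Hdc-GFPlo) and Ly6a, which encodes Sca-1 (125 ± 19.0 against 119 ± 16.9 CPM), were present in both fractions. The fractions differed in markers of the cells inside the LSK gate. Over all tested genes, 0.241% were called higher and 0.707% lower in Hdc-GFPhi. Of 12 markers of long-term stem cells, 2 were called higher and none lower in Hdc-GFPhi, with summed levels of 2361 to 2727 CPM against 1666 to 1973 CPM. Of 9 markers of lymphoid-primed progenitors, 7 were called lower and none higher, with summed levels of 1288 to 1715 against 2666 to 3633 CPM, and 5 of 9 B cell markers were called lower (101 to 195 against 327 to 641 CPM). Markers of monocytes and neutrophils summed to 1767 to 2444 against 2272 to 3029 CPM, with 3 of 11 called lower. Erythroid markers summed to 185 to 501 against 224 to 496 CPM with none of 7 called, although Hba-a1 had no counts in any library. Markers of T and NK cells summed to 80.1 to 103 against 133 to 153 CPM, mostly from Lck, with 1 of 2 tested called lower and Cd8a at no counts. Megakaryocyte markers summed to 884 to 960 against 535 to 673 CPM (1 of 7 called higher), mast cell and basophil markers to 195 to 287 against 130 to 205 CPM (none of 4 called), and stromal and endothelial markers to 336 to 397 against 273 to 311 CPM (1 of 4 called higher). In such bulk samples, fewer cells of a type and less RNA per cell cannot be told apart, and the part of these shifts in any value below was not tested.

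Hdc-GFPlo replicate 3 stood apart for this family. ABC genes summed to 1803 CPM in it and to 2265 to 2370 CPM in the other Hdc-GFPlo libraries, against 2172 to 2399 CPM in Hdc-GFPhi. Of the 31 tested members, 21 were lowest within Hdc-GFPlo in that library. Hdc-GFPlo replicate 2 was highest within its fraction for 16 members (median deviation from the fraction mean 0.19, log2 scale). Hdc-GFPhi replicate 4 was lowest within its fraction for 12 members (median deviation -0.13). Hdc-GFPlo replicate 3 was also low across long transcripts in general. Its median deviation from the Hdc-GFPlo mean was 0.24 on the log2 scale over 2824 tested genes with transcripts under 2 kb and -0.24 over 1531 genes over 6 kb. ABC transcripts are long, with a median of 5.0 kb over the tested members against 3.12 kb over the 11438 tested genes with a known length, and the 7 members over 6 kb had a median deviation of -0.48 in that library. Members of the other length classes were also lower in that library than all tested genes of like length. Their median deviations were -0.14 against -0.02 at 2 to 4 kb and -0.35 against -0.18 at 4 to 6 kb. Without Hdc-GFPlo replicate 3 the median log2 fold change of the members over 6 kb went from 0.21 to 0.06. That of all tested genes over 6 kb went from 0.02 to -0.03. The part of transcript length in the members' differences was not tested.

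**Figure D1:**
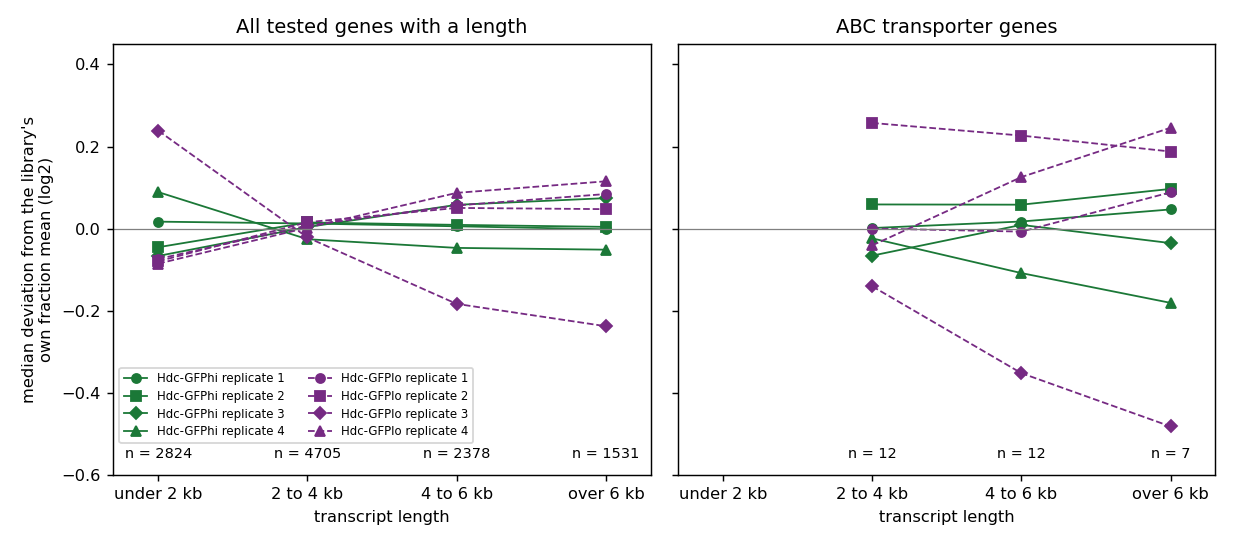
Median deviation of each library from the mean of its own fraction (log2 scale), by transcript length class, for all tested genes with a known length (left) and for the ABC transporter genes (right). Lines join the classes of 1 library, solid for Hdc-GFPhi and dashed for Hdc-GFPlo, and Hdc-GFPlo replicate 3 drops from 0.24 under 2 kb to -0.24 over 6 kb among all genes.

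No ABC gene passed the test between the fractions. With edgeR's quasi-likelihood test and Benjamini-Hochberg adjustment over all tested genes, 0 of 31 members had an adjusted p under 0.05, where 0.947% of all tested genes did (0.241% higher and 0.707% lower in Hdc-GFPhi). At an unadjusted p under 0.05 there were 3 members, Abcg3, Abcd2 and Abcb4, or 9.68% of the tested members against 10.9% of all genes. Some other settings called 1 or 2 members. DESeq2 called Abcg3 and Abcd2 (6.45%, against 3.04% of all genes), and limma voom called Abcg3 alone (3.23%, against 2.09%). With replicates 1 and 2 against 3 and 4 as covariate, a split no label gives, edgeR called Abcg3 and Abcd2 (6.45%, against 2.07%). Hdc-GFPhi libraries grouped by this split. In Hdc-GFPlo, replicate 4 was nearer to replicate 1 than to replicate 3 (chi-square per degree of freedom 13.3 against 49.8). Calls under this split were therefore not taken as added support. All Hdc-GFPhi libraries lay above all Hdc-GFPlo libraries for 2 members (6.45%, against 3.38% of all genes) and below them for 1 member (3.23%, against 3.54%). With 31 members, a single gene makes up 3.23%, and none of these counts sets the family apart from the background. The median log2 fold change (Hdc-GFPhi minus Hdc-GFPlo) was 0.17 over the tested members and 0.00 over all tested genes, and 22 of 31 members were above 0 (71.0%, against 49.9% of all genes). Without Hdc-GFPlo replicate 3 the median was 0.05 and 18 of 31 members were above 0. With each of the other libraries left out singly, the median ran from 0.12 to 0.23, with 19 to 25 members above 0. Those fits held 31 of these members, or 30 without Hdc-GFPhi replicate 1 or 3.

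**Figure D2:**
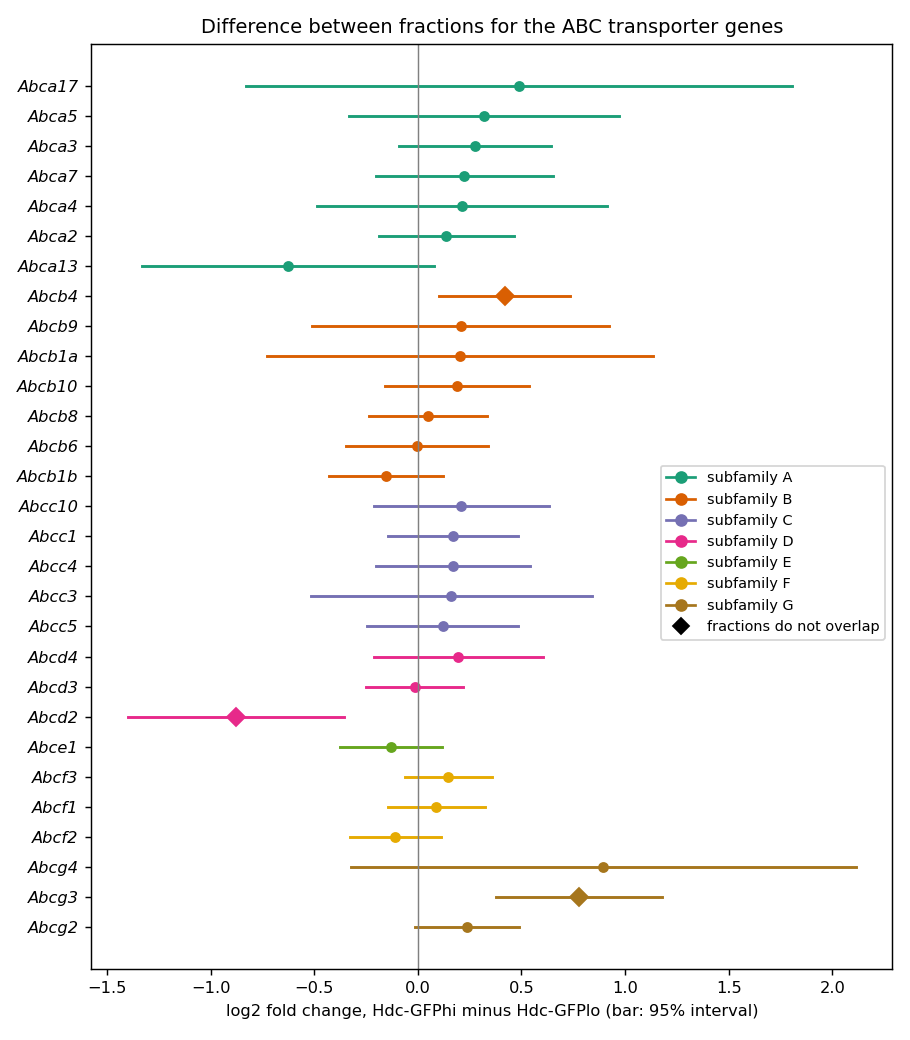
Log2 fold change (Hdc-GFPhi minus Hdc-GFPlo) with its 95% interval for 29 tested ABC transporter genes, ordered by subfamily and coloured by it. Diamonds mark Abcg3, Abcb4 and Abcd2, whose fractions do not overlap, and the intervals of the other 26 genes include 0.

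The drug and dye pumps were read in order of their link to stem cells. Abcg2, the side-population pump, was at 78.2, 104, 89.8 and 80.0 CPM in Hdc-GFPhi replicates 1 to 4. In Hdc-GFPlo replicates 1 to 4 it was at 70.1, 79.2, 72.7 and 76.7 CPM. The fractions touched at their edges, with Hdc-GFPhi replicate 1 just under Hdc-GFPlo replicate 2. The log2 fold change was 0.24 ± 0.12 (SE, 95% interval -0.01 to 0.49, edgeR adjusted p = 0.504), so a difference of up to 1.40-fold lies within the interval. Abcg2 was not called under any of the 19 alternatives, over which its log2 fold change ranged from 0.15 to 0.29.

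Abcg3, a rodent relative of Abcg2 whose substrates are poorly known, had the smallest edgeR p among the members higher in Hdc-GFPhi. It was at 44.5, 71.2, 51.1 and 39.6 CPM in Hdc-GFPhi replicates 1 to 4 and at 28.4, 37.7, 27.9 and 26.3 CPM in Hdc-GFPlo replicates 1 to 4. Every Hdc-GFPhi library was above every Hdc-GFPlo library, and replicate 2 was the highest within each fraction. The estimated level was 1.72-fold higher in Hdc-GFPhi (log2 fold change 0.78 ± 0.18, 95% interval of the fold 1.30 to 2.27, edgeR adjusted p = 0.0759). The adjusted p was 0.00542 with DESeq2, 0.0312 with limma voom, and 0.0534 to 0.255 in edgeR when 1 library was left out. With the replicate split that no label gives as covariate, the edgeR adjusted p was 0.0244. No stretch of 50 bases of the Abcg3 transcript occurs in the transcripts of another gene, Abcg2 included, in the GENCODE M21 set.

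Transcripts for P-glycoprotein were mostly those of Abcb1b. Abcb1b was at 44.6, 36.1, 45.3 and 41.7 CPM in Hdc-GFPhi and at 52.9, 45.9, 39.5 and 48.1 CPM in Hdc-GFPlo, replicates 1 to 4 in each. The fractions overlapped (log2 fold change -0.15 ± 0.13, 95% interval -0.43 to 0.12, edgeR adjusted p = 0.767). Abcb1a was at 3.75, 6.81, 3.12 and 2.14 CPM in Hdc-GFPhi and at 5.18, 4.69, 1.66 and 2.18 CPM in Hdc-GFPlo. Replicates 1 and 2 lay above replicates 3 and 4 in both fractions for Abcb1a, a spread wider than the difference between fractions (log2 fold change 0.20 ± 0.43, edgeR adjusted p = 0.926). The sign of that difference turned to -0.19 without Hdc-GFPhi replicate 2 and to -0.01 without Hdc-GFPlo replicate 3. Per kilobase of transcript, Abcb1b was 12.3 times as high as Abcb1a in Hdc-GFPhi and 15.8 times in Hdc-GFPlo. The transcripts are close copies in part: 15.5% of the stretches of 50 bases in Abcb1a occur in Abcb1b, and 18.0% of those in Abcb1b occur in Abcb1a. The sources used here do not state how reads from such stretches were counted, and the ratio is uncertain to that extent.

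The promoters of this unequal pair, and that of Abcg3, are shown because they set the sequence around each start beside its level. Each run covers 250 bases before to 50 bases after a RefSeq start in the build GRCm38.p6, which is not the mm9 build of the counts, and is written 5′ to 3′ on the strand of the gene. Capitals mark matches, on either strand, to any of 5 short motifs of common promoter factors. The search letters were AGATAA for the motif of GATA factors and GGGCGG for the GC box, to which Sp factors bind. The CCAAT box was searched by the letters of its name, the E-box of basic helix-loop-helix factors by CAGCTG, and the motif of Ets factors by CCGGAAG.
Abcb1a (chr5:8566841-8567140, plus strand): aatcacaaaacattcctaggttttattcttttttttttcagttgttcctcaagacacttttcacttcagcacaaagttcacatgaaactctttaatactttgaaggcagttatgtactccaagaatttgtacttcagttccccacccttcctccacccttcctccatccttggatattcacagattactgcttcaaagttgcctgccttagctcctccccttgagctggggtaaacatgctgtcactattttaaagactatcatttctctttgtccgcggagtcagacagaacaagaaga
Abcb1b (chr5:8797897-8798196, plus strand): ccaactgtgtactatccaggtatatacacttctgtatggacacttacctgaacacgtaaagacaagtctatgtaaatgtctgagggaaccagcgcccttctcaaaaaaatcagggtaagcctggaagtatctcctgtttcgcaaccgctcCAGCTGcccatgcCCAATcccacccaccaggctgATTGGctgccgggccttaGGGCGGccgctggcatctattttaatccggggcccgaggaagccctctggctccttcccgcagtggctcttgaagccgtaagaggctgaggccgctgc
Abcg3 (chr5:104982668-104982967, minus strand): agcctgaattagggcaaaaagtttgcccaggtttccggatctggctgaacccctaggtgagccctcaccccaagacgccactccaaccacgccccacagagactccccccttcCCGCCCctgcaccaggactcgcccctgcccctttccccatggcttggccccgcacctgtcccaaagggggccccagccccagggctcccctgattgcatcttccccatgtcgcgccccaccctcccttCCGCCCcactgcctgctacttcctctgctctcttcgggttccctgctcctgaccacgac

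The Abcb1a window held none of these motifs, 2 CpG dinucleotides and 40.3% G or C. The window of Abcb1b held 1 GC box, 2 CCAAT boxes, 1 E-box and 12 CpG dinucleotides at 55% G or C, with no overlap between motifs, and that of Abcg3 held 2 GC boxes and 11 CpG dinucleotides at 65.3%. Over 32851 RefSeq promoters of the same length, 35.7% held a GC box, 37.4% a CCAAT box, 16.3% an E-box, 11.2% the GATA motif and 8.86% the Ets motif. RefSeq promoters were matched for 37 members by symbol. Taking the window richest in CpG for each gene, the 23 tested members had a median of 23 CpG dinucleotides (2 to 45) and 15 of them held a GC box. The 14 members too low to test had a median of 5.5 (1 to 22) and 2 of them held a GC box. The shares over all RefSeq promoters counted every window, with no choice by CpG, and are not a like measure for these counts. These matches describe letters in a window and were set against no measure of binding. Which start these cells use was not tested, and the window can matter: those of Abcg2 held 3, 10 or 28 CpG dinucleotides.

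**Figure D3:**
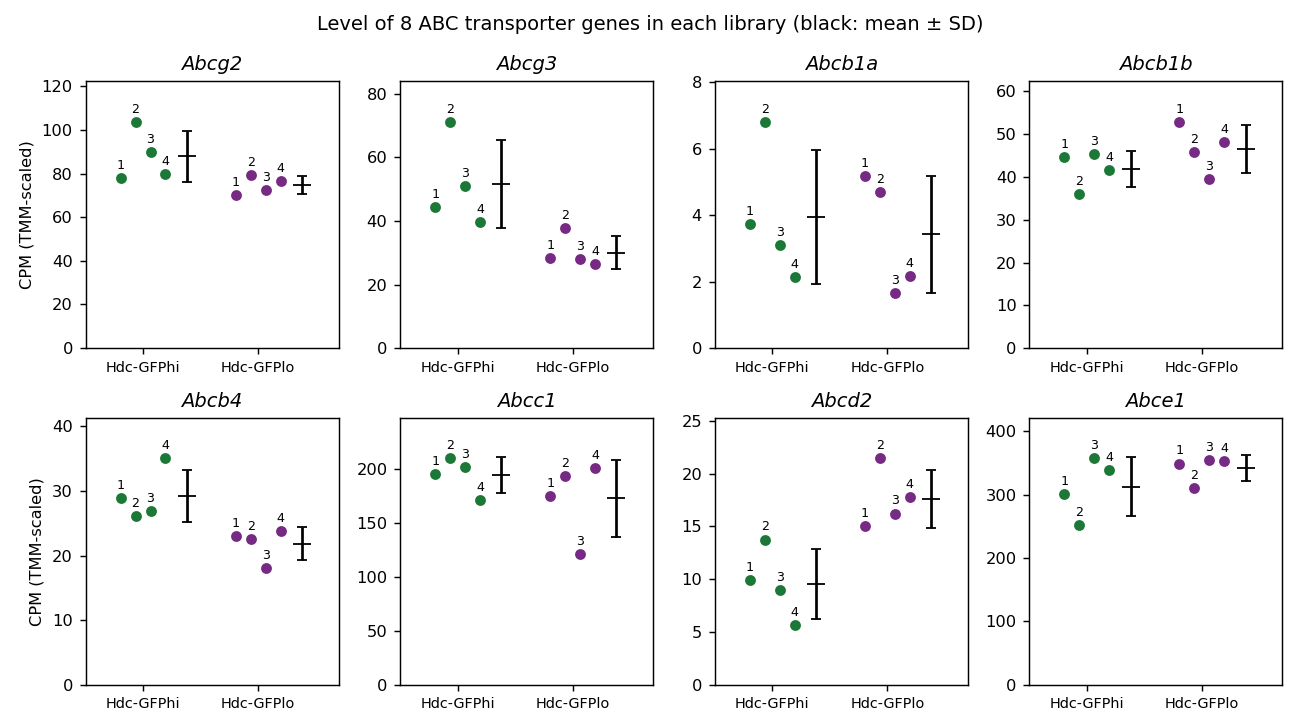
Level of 8 ABC transporter genes in each library, in CPM scaled by TMM, with points numbered by replicate and the black bar giving mean ± SD (n = 4 per fraction). Abcg3 and Abcb4 lie wholly higher and Abcd2 wholly lower in Hdc-GFPhi, while Abcg2, Abcb1a, Abcb1b, Abcc1 and Abce1 overlap.

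The multidrug resistance proteins of the C subfamily were alike in showing no separation. Abcc1, which exports glutathione conjugates and leukotriene C4, was at 196, 210, 202 and 171 CPM in Hdc-GFPhi and at 175, 193, 121 and 201 CPM in Hdc-GFPlo, replicates 1 to 4 in each. Its low value was in Hdc-GFPlo replicate 3, the library low for long transcripts. The log2 fold change was 0.17 ± 0.14 (edgeR adjusted p = 0.769) and was 0.05 without that library. Abcc4 and Abcc5, exporters that also carry cyclic nucleotides, averaged 78.7 ± 6.81 and 56.8 ± 4.47 CPM in Hdc-GFPhi against 70.0 ± 18.6 and 52.3 ± 12.8 CPM in Hdc-GFPlo. Abcc3, an exporter of organic anion conjugates, averaged 11.7 ± 1.89 against 10.4 ± 5.42 CPM, and Abcc10, another resistance protein, 12.6 ± 1.81 against 10.9 ± 2.23 CPM. All 5 tested C subfamily genes had log2 fold changes between 0.12 and 0.21, none called by edgeR, DESeq2 or limma voom and none with an unadjusted p under 0.05. Without Hdc-GFPlo replicate 3, 3 of the 5 were above 0, with log2 fold changes of -0.05 to 0.20. Abcc2, the export pump of the hepatocyte canaliculus, had 7 counts over all libraries, and Abcc6 and Abcc12 had none. Abcb5, another drug transporter, also had none. The sulfonylurea receptors, which are ABC proteins that gate potassium channels, were at 1 count (Abcc9) and 0 counts (Abcc8).

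Lipid transporters of the A subfamily were led by Abca2, Abca7 and Abca3. Abca2, an endosomal and lysosomal transporter, averaged 218 ± 24.9 CPM in Hdc-GFPhi against 198 ± 42.4 CPM in Hdc-GFPlo, and Abca7, which moves phospholipids and takes part in phagocytosis, 181 ± 33.2 against 155 ± 42.1 CPM. Abca3, the lamellar body transporter of lung surfactant, was at 86.7, 97.2, 79.3 and 74.2 CPM in Hdc-GFPhi and at 72.2, 74.2, 46.1 and 86.0 CPM in Hdc-GFPlo. Abca2, Abca7 and Abca3 were each lowest in Hdc-GFPlo replicate 3, and the fractions overlapped for each. The log2 fold change of Abca3 was 0.28 ± 0.17 (edgeR adjusted p = 0.633) and fell to 0.14 without that library. Abca5, a lysosomal transporter, and Abca4, the retinoid transporter of photoreceptors, averaged 6.95 ± 2.57 and 5.14 ± 2.58 CPM in Hdc-GFPhi against 5.58 ± 2.02 and 4.43 ± 0.83 CPM in Hdc-GFPlo. Abca17 averaged 0.65 ± 0.30 against 0.47 ± 0.37 CPM and lies beside Abca3, with which it shares 2.75% of its stretches of 50 bases.

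Abca13, a very large A subfamily gene, was the tested A subfamily member with a lower mean in Hdc-GFPhi. It was at 1.25, 1.77, 2.40 and 1.96 CPM in Hdc-GFPhi and at 3.80, 2.73, 2.33 and 2.54 CPM in Hdc-GFPlo, replicates 1 to 4 in each. The fractions overlapped through Hdc-GFPhi replicate 3, and the log2 fold change was -0.63 ± 0.33 (95% interval -1.33 to 0.08, edgeR adjusted p = 0.541). These values rest on 28 to 86 counts per library.

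Abcb4, which flips phosphatidylcholine into bile in the liver and lies next to Abcb1b, was at 28.9, 26.2, 26.9 and 35.0 CPM in Hdc-GFPhi. In Hdc-GFPlo it was at 23.01, 22.6, 18.1 and 23.8 CPM, so that every library was below those of Hdc-GFPhi. The estimated level was 1.34-fold higher in Hdc-GFPhi (log2 fold change 0.42 ± 0.15, 95% interval 0.10 to 0.74, edgeR adjusted p = 0.264). It was not called under any of the 19 alternatives, with adjusted p values of 0.125 to 0.482. Its log2 fold change was 0.35 without Hdc-GFPlo replicate 3, its lowest library. Over the alternatives it ranged from 0.25, without that library and Hdc-GFPhi replicate 4 together, to 0.47, without Hdc-GFPhi replicate 2. Its neighbours Abcb1a and Abcb1b overlapped between the fractions, and Abcb4 shares 3.15% of its stretches of 50 bases with Abcb1a.

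Abcg4, a sterol transporter related to Abcg1, was at 0.45, 2.10, 2.40 and 0.89 CPM in Hdc-GFPhi and at 0.84, 1.25, 0.39 and 0.66 CPM in Hdc-GFPlo. Hdc-GFPhi replicates 2 and 3 were above all Hdc-GFPlo libraries and replicates 1 and 4 were not. The log2 fold change of 0.90 had a 95% interval of -0.32 to 2.11 (edgeR adjusted p = 0.645), on 7 to 54 counts per library. Of 20 members grouped as lipid transporters, 9 were tested and 8 of these were above 0 (median 0.28), with none called by edgeR, DESeq2 or limma voom and Abcb4 alone at an unadjusted p under 0.05. The median of these 9 lipid transporters was 0.14 without Hdc-GFPlo replicate 3, with 8 above 0.

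Most of the members too low to test were lipid transporters. No counts in any library were found for Abca12, a lipid transporter of skin, Abca8a, Abca16 and Abcg8, 1 partner of the sterol exporter of gut and liver. Its other partner Abcg5 had 1 count, Abca14 had 1, Abca15 had 5, all in Hdc-GFPhi replicate 4, and the bile salt export pump Abcb11 had 2. A count of 0 over the 166063376 counts of all libraries allows a level of up to 0.0181 CPM, a limit that covers counting error only. The neighbours Abca6, Abca8b and Abca9 had 20, 71 and 55 counts. The counts of Abca9 were uneven among libraries of 1 fraction, at 1, 11, 3 and 24 in Hdc-GFPhi and 2, 14, 0 and 0 in Hdc-GFPlo. In all, 17 members were not tested, of which 8 had 0 counts.

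Abcd2 had the clearest separation in the other direction. It encodes a peroxisomal importer of very long-chain fatty acyl-CoA. Abcd2 was at 9.90, 13.8, 8.99 and 5.66 CPM in Hdc-GFPhi replicates 1 to 4 and at 15.1, 21.4, 16.2 and 17.7 CPM in Hdc-GFPlo replicates 1 to 4. Every Hdc-GFPhi library was below every Hdc-GFPlo library, and replicate 2 was again the highest within each fraction. The estimated level was 1.84-fold lower in Hdc-GFPhi (log2 fold change -0.88 ± 0.24, 95% interval -1.40 to -0.36, edgeR adjusted p = 0.131). The adjusted p was 0.0200 with DESeq2 and 0.0595 with limma voom. In edgeR it was 0.0474 without Hdc-GFPhi replicate 2 and reached 0.259 without Hdc-GFPhi replicate 3. With the replicate split that no label gives as covariate, the edgeR adjusted p was 0.0421.

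Abcd3 and Abcd4, of the same subfamily, were more abundant and did not separate. Abcd3, which imports branched and dicarboxylic acyl chains, averaged 83.2 ± 5.01 against 84.1 ± 8.75 CPM (Hdc-GFPhi against Hdc-GFPlo). Per kilobase, Abcd3 was 13.8 times as high as Abcd2 in Hdc-GFPhi and 7.57 times in Hdc-GFPlo. Abcd4, which takes part in the release of cobalamin from lysosomes, averaged 23.2 ± 4.43 against 20.3 ± 4.51 CPM. None of 24 tested peroxisomal fatty acid genes was called by edgeR, DESeq2 or limma voom (median log2 fold change 0.00, 12 of 24 above 0). An unadjusted p under 0.05 was found for 2 of them (8.33%, against 10.9% of all genes). Among these was Ehhadh, an enzyme of peroxisomal beta-oxidation, with 12.0 ± 2.09 against 8.90 ± 1.37 CPM (edgeR adjusted p = 0.452).

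The mitochondrial half-transporters Abcb8, Abcb10 and Abcb6 overlapped between the fractions. Abcb8, an inner membrane transporter linked to iron handling, was at 111, 106, 96.4 and 81.2 CPM in Hdc-GFPhi and at 95.4, 107, 77.3 and 102 CPM in Hdc-GFPlo. Its fractions covered nearly the same range (log2 fold change 0.05 ± 0.13, 95% interval -0.24 to 0.33, edgeR adjusted p = 0.942). Abcb10, needed for heme synthesis in erythroid cells, averaged 66.7 ± 9.12 against 58.5 ± 12.2 CPM.

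Abcb6, linked to porphyrin transport, averaged 18.0 ± 1.73 against 18.0 ± 3.08 CPM, with a 95% interval of -0.35 to 0.34 for the log2 fold change. In GENCODE M21, 90.3% of the stretches of 50 bases of Abcb6 also belong to the gene model Gm29253, so its count may depend on the annotation used. Abcb9, a lysosomal peptide transporter, averaged 4.49 ± 1.23 against 3.91 ± 1.74 CPM. Its relatives Tap1 and Tap2, which load peptides for MHC class I and do not carry the Abc symbol, averaged 248 ± 23.8 and 339 ± 38.4 CPM in Hdc-GFPhi against 236 ± 32.2 and 343 ± 39.1 CPM in Hdc-GFPlo. Of 22 tested heme and iron-sulfur cluster genes, none was called by edgeR, DESeq2 or limma voom and none had an unadjusted p under 0.05. The median log2 fold change of these genes was -0.06, and 5 of 22 were above 0 (22.7%, against 49.9% of all genes). Among them, Ppox, a late enzyme of heme synthesis, had a log2 fold change of 0.21 ± 0.10, and Isca2, an iron-sulfur assembly factor, had -0.25 ± 0.13.

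The ribosome-bound members Abce1, Abcf2 and Abcf1 had the highest levels of the tested members per kilobase of transcript, and Abcf3 stood just below Abcb8. Abce1, which splits ribosomes after termination, stood at 86.2 CPM per kilobase over all libraries, and Abcf2 and Abcf1, of which Abcf1 binds the initiation factor eIF2, at 63.0 and 61.4. Abcb8, Abcf3 and Abcc1 followed at 31.6, 30.9 and 27.1, and Abcg2 and Abcg3 stood at 14.2 and 13.5 CPM per kilobase. Abcb1a (0.74), Abca4 (0.66), Abcg4 (0.28), Abca13 (0.15) and Abca17 (0.11) were the lowest of the tested members. Levels per length rest on the longest protein-coding transcript of each gene in GENCODE M21.

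**Figure D4:**
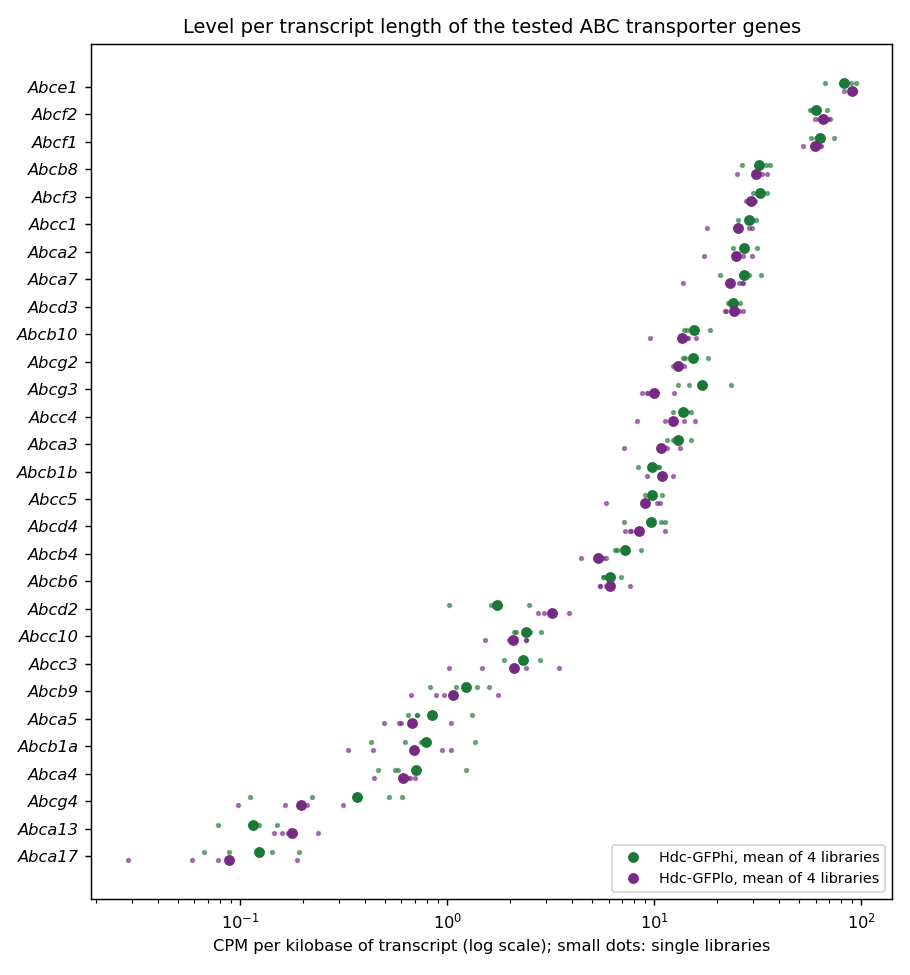
Level of 29 tested ABC transporter genes per kilobase of transcript (log scale), with large dots for the mean of 4 libraries and small dots for single libraries, green for Hdc-GFPhi and purple for Hdc-GFPlo. Abce1 is highest at 86.2 and Abca17 lowest at 0.11 CPM per kilobase over all libraries, and Abcd2 and Abcg3 show the widest gaps between fractions among members above 1 CPM per kilobase.

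Abce1 was at 302, 252, 357 and 339 CPM in Hdc-GFPhi and at 349, 311, 354 and 353 CPM in Hdc-GFPlo, replicates 1 to 4 in each. Replicate 2 was the lowest within each fraction, and the log2 fold change was -0.13 ± 0.11 (edgeR adjusted p = 0.782). Abcf1 was at 232, 198, 190 and 179 CPM in Hdc-GFPhi and at 201, 200.1, 166 and 185 CPM in Hdc-GFPlo (log2 fold change 0.09 ± 0.11, edgeR adjusted p = 0.853). Both fractions of Abcf1 covered much the same range, and its log2 fold change was 0.05 without Hdc-GFPlo replicate 3. Abcf2 was at 175, 146, 148 and 154 CPM in Hdc-GFPhi and at 182, 178, 153 and 160.0 CPM in Hdc-GFPlo (log2 fold change -0.11 ± 0.10, edgeR adjusted p = 0.787). Abcf3, a partner of the Gcn2 pathway by homology to yeast, was at 108, 100.3, 92.2 and 100.2 CPM in Hdc-GFPhi and at 89.9, 94.5, 85.4 and 92.2 CPM in Hdc-GFPlo (log2 fold change 0.15 ± 0.10, edgeR adjusted p = 0.665). For Abcf3, Hdc-GFPlo replicates 2 and 4 lay above Hdc-GFPhi replicate 3, and the other libraries were apart.

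Of 14 tested partners of these proteins in termination, ribosome recycling and the Gcn2 pathway, 0 passed in edgeR, and DESeq2 and limma voom called 1 each (median log2 fold change -0.13, 6 of 14 above 0). An unadjusted p under 0.05 was found for 4 of them, or 28.6% against 10.9% of all genes. All Hdc-GFPhi libraries lay below all Hdc-GFPlo libraries for 2 of them (14.3%, against 3.54%) and above for 1 (7.14%, against 3.38%). The gene DESeq2 called was Gspt2, a release factor GTPase, at 13.9 ± 1.26 against 8.04 ± 1.27 CPM (edgeR adjusted p = 0.0574). Etf1, the release factor that reads stop codons, averaged 102 ± 8.31 against 127 ± 10.9 CPM (edgeR adjusted p = 0.220). Of 19 tested regulators of pump and lipid transporter genes, none was called by edgeR, DESeq2 or limma voom (median 0.02, 11 of 19 above 0). An unadjusted p under 0.05 was found for 3 of these regulators (15.8%, against 10.9% of all genes). Ahr, a receptor for aryl hydrocarbons, averaged 19.9 ± 0.58 against 15.4 ± 2.94 CPM, and Foxo1, a forkhead factor, 37.1 ± 5.34 against 46.9 ± 8.09 CPM (edgeR adjusted p = 0.408 and 0.429).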

How the data were processed

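The authors deposited raw read counts per gene symbol for 8 libraries. The labels' protocols name PicoPure isolation of RNA from 2000 sorted cells, SMARTer ultra-low-input amplification and Nextera XT libraries. The submitters' processing notes list bcl2fastq 1.8.4, Bowtie2, TopHat2 (version given as 2.04), HTSeq 0.6.1 and the build mm9. The sources used here name no annotation, strand setting or rule for multi-mapping reads. Counts without molecular identifiers include copies of the same molecule.

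Genes kept by filterByExpr (13300) were scaled by TMM and fitted over all genes with edgeR 4.0.16 (robust glmQLFit, glmQLFTest, R 4.3.3), Hdc-GFPhi against Hdc-GFPlo, calling genes at a Benjamini-Hochberg adjusted p under 0.05. CPM values are TMM-scaled; for log2 CPM the prior count was 2. The fit was tested on simulated data. The common biological coefficient of variation was 19.9%. Groups follow the titles; Hdc-GFPhi replicate 4 is labelled GFP+ in 1 field. No label says that replicates were separate animals, so the p-values cover only the variation among these libraries, part of which may be technical. No pair of libraries of the same fraction agreed within sampling noise (chi-square per degree of freedom at least 13.3).

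Named with all values were Abcg2, Abcb1a, Abcb1b, Abcc1, members called or not overlapping, the 5 of smallest p in each direction and the 6 highest per kilobase. A few genes that enter the counts are not reported here by name. Members and gene lists were chosen with earlier results of these data known. Alternatives were other scalings and filters, DESeq2 1.42.0, limma 3.58.1 voom, no robust estimation, a replicate block, a replicate split as covariate and leaving out libraries. Transcript lengths and shared stretches of 50 bases come from GENCODE M21 (all 48 members matched), promoters from RefSeq (37 matched).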

Additional observations from a re-analysis of the deposited data

Results flagged for a closer look

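Over the 15 genes reported with all their values, 30 sets of 4 libraries were examined for a library far from the rest, by the gap to its nearest neighbour as a share of the whole range against Dixon's critical value, which chance exceeds in about 1 of 20 sets. Abce1 in Hdc-GFPlo replicate 2, at 311 CPM, lay below the other Hdc-GFPlo libraries, the nearest at 349 CPM (share 0.886).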

How the results depend on the processing

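The count of 0 called members stayed at 0 under the other scalings, the other filters and without robust estimation. It was 2 with DESeq2, 1 with limma voom, 2 with the replicate number as a block, 2 with the replicate split as covariate, and 0 to 1 when 1 library was left out. All genes called numbered 126, and 404, 278, 224 and 275 under those 4 settings, with 52 to 146 when 1 library was left out. With the block, the adjusted p was 0.0128 for Abcg3 and 0.0497 for Abcd2. Deviations of libraries of the same number correlated at 0.26, 0.35, 0.08 and 0.10 for replicates 1 to 4. Replicates 1 and 2 of Hdc-GFPhi correlated best with their own number and replicates 3 and 4 with each other's, so the numbers were not taken to pair the libraries. With 1 library left out, log2 fold changes ran from -0.19 to 0.48 for Abcb1a and from -0.027 to 0.13 for Abcb8. Abcb1a turned negative when Hdc-GFPhi replicate 2 (-0.19) or Hdc-GFPlo replicate 3 (-0.01) was dropped. The log2 fold change of Abcb8 turned negative when Hdc-GFPhi replicate 1 (-0.011) or Hdc-GFPlo replicate 3 (-0.027) was dropped. The cause was not tested. The other 13 genes reported with all their values kept their direction under every alternative that could be fitted. Abcg4 and Abca13 were not tested with at least 50 counts in 4 libraries.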
